A study of Drosophila melanogaster with 6 samples.

Results

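The 10 genes described here specify what the parts of the fly's antenna and head become: Dll, ss, al, Lim1, ap, ct, salm, en, Scr and Dfd. They were a list of names, matched by gene symbol and drawn up with earlier results of these arrays known, among 11982 genes that had a probe set with 1 symbol on the array. Together they had 16 probe sets, of which 13, from 9 of the 10 genes, were bright enough to be tested. The gene without a tested probe set was ap.

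RNA came from eye-antennal imaginal discs of wandering Drosophila melanogaster larvae of the third instar, grown at 25 °C. The tumour group, ey-Gal4 GS(2)88A8 UAS-Dl/+, had 3 arrays. The control group, GS(2)88A8 UAS-Dl/+, also had 3 arrays. Both groups were in the w1118 strain, and both carried the GS(2)88A8 insertion and the UAS-Dl transgene of the Notch ligand Delta. The groups therefore differed by ey-Gal4, a driver active in the developing eye, and no group carried that driver alone. Whether the driver was also active in antennal cells was not measured here. In published work the GS(2)88A8 insertion places the transcription factor genes lola and psq under Gal4 control. Each array measured a pool of disc pairs, with a number in the design text that reads as 300.

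As background, the eye-antennal disc is a single epithelial sac whose posterior part forms the eye and whose anterior part forms the antenna, with the head capsule and maxillary palp arising around them. The homeodomain protein Dll and the bHLH-PAS protein ss give the anterior part its antennal identity and distal pattern, al and Lim1 pattern the tip, and en marks posterior compartments. The Hox genes Dfd and Scr assign identity to gnathal segments. Eye selector genes and antennal selector genes restrain each other in this disc during larval life.

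Values are log2 GCRMA intensities, where a difference of 1 is a 2-fold change. The lowest value found on these arrays, called the floor here, was 2.17. A level is read only against the same probe set on other arrays, since different probe sets are not on a common scale. Each array had from 7864 to 8004 probe sets at a log2 value of 4 or above. In both genotypes replicate 1 lay far from the other 4 arrays along the first principal component, which held 67.1% of the variance of the tested probe sets. The mean of the 3 control probe sets for 18S rRNA was 11.4 log2 for replicate 1 and 6.20 for the remaining arrays. Of the markers of neighbouring wing and leg discs, vg, nub and Antp were not tested because they stayed near the floor, with values no higher than 3.59 on any array. Ubx had no probe set with its symbol alone. Since probe sets are not on a common scale, low values here do not show that such tissue was absent.

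Lower values in the tumour discs were the rule among the genes: of the 9 tested, 8 were lower in tumour than in control within each of the 3 replicate numbers, and salm was higher in each. Of all 6447 tested genes, 20.6% were lower in tumour in all 3 numbers and 35.7% were higher in all 3. The median difference of the 9 genes was -0.35 log2, against 0.05 log2 for all tested genes. In limma's unpaired fit, 0 of the 9 genes passed an adjusted p of 0.05, where the background was 0.372% of tested genes called lower and 0.140% called higher. At an unadjusted p under 0.05, 3 of the 9 were lower in that fit, namely ss, Lim1 and en, against 4.98% of tested genes. With the replicate number as a block, limma called 3 of the 9 lower, Dll, en and Scr, and 0 higher, against backgrounds of 5.38% lower and 4.06% higher. Because of how the list was drawn up, these counts describe the genes and are not independent support. In bulk tissue, fewer cells that express a gene and less RNA per cell cannot be told apart.

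**Figure D1:**
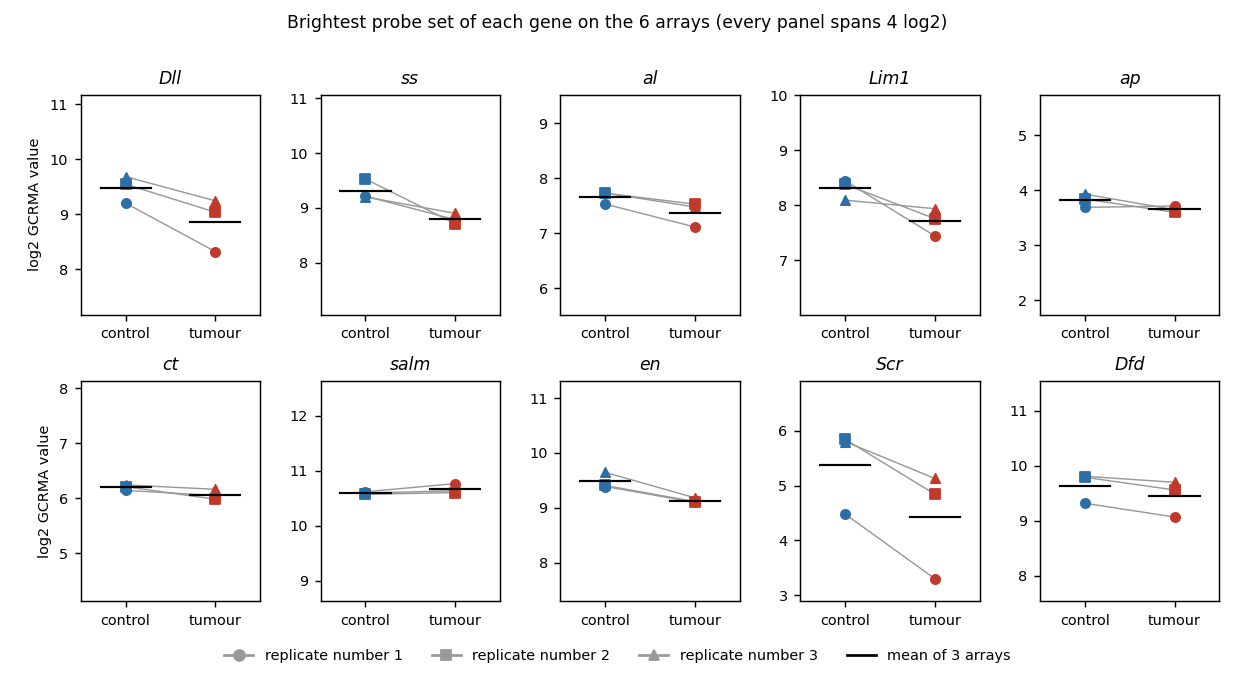
Log2 GCRMA value of the brightest probe set of each of the 10 genes on the 3 control arrays (blue) and 3 tumour arrays (red), with lines joining arrays of the same replicate number, black bars for the mean of each genotype and a vertical span of 4 log2 in every panel. For 8 genes, every line from control to tumour runs downward; the salm lines rise slightly, and 1 of the 3 ap lines does.

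Dll, the homeobox gene at the head of distal appendage and antennal development, had lower values in tumour on all 3 of its probe sets. Its brightest probe set read 8.32, 9.04 and 9.25 log2 on tumour arrays 1, 2 and 3, and 9.20, 9.55 and 9.69 on control arrays 1, 2 and 3. The lowest value was the tumour array of replicate 1, and the genotypes overlapped only between tumour array 3 and control array 1. Tumour arrays averaged 8.87 ± 0.48 and control arrays 9.48 ± 0.25 (SD, n = 3), a fall of 1.53-fold. The fall passed in limma's fit with the replicate block (-0.61 log2, SE 0.11, adjusted p = 0.0352) and not in the unpaired fit (adjusted p = 0.656).

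The other 2 Dll probe sets gave similar mean differences with a different order of the pairs. The second read 9.21, 8.66 and 8.89 log2 on the tumour arrays and 9.33, 9.49 and 9.39 on the control arrays. Here every tumour value lay below every control value, and the smallest within-number difference, -0.12, was that of replicate 1, whereas replicate 1 had the largest on the brightest probe set, -0.88. Its mean difference was -0.48 log2 (limma adjusted p = 0.107 with the replicate block and 0.448 unpaired). The third Dll probe set, close to the filter at 4, read 4.001, 4.33 and 4.40 in tumour and 4.36, 5.33 and 4.68 in control, with a mean difference of -0.55 log2 (adjusted p = 0.123 with the block). The call on Dll thus rested on the brightest of its 3 probe sets. The second was nearly as bright, averaging 8.92 log2 in tumour and 9.40 in control, against 8.87 and 9.48 for the first. Had the second represented the gene, Dll would not have been called with the block.

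The gene ss encodes the bHLH-PAS factor that gives the distal antenna its identity; flies that lack it form a leg tip in place of the arista. It read 8.79, 8.72 and 8.90 log2 on tumour arrays 1, 2 and 3 and 9.21, 9.53 and 9.20 on the control arrays. The genotypes did not overlap, with the tumour values close together and control array 2 above the others. Tumour arrays averaged 8.80 ± 0.094 and control arrays 9.31 ± 0.18 (SD, n = 3), which differ by -0.51 log2. It passed neither limma fit (adjusted p = 0.0626 with the replicate block and 0.280 unpaired). Its dimerisation partner tgo differed by 0.07 log2 (adjusted p = 0.453 with the block).

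Lim1 and al encode homeodomain proteins that pattern the arista and the leg tip. The brighter Lim1 probe set read 7.44, 7.75 and 7.93 log2 on the tumour arrays and 8.44, 8.38 and 8.09 on the control arrays. The genotypes did not overlap, yet the within-number differences spread widely, from -1.003 in replicate 1 to -0.16 in replicate 3. The mean difference was -0.59 log2, or 1.51-fold lower in tumour, with a 95% interval from -1.04 to -0.15 in the fit with the block (limma adjusted p = 0.103; 0.408 unpaired). The second Lim1 probe set differed by -0.26 log2 (adjusted p = 0.267 with the block), and its genotypes overlapped.

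The al probe set read 7.11, 7.53 and 7.48 log2 in tumour and 7.53, 7.73 and 7.73 in control. Only tumour array 2 and control array 1 met at the border between the genotypes. The mean difference was -0.29 log2 with a 95% interval from -0.53 to -0.05 in the fit with the block, which did not pass after adjustment over all tested probe sets (limma adjusted p = 0.121; 0.859 unpaired). Without tumour replicate 1 the al difference was -0.16 in the unpaired fit. For ap, a LIM-homeodomain gene of the dorsal wing and the leg tip, both probe sets were left out of the tests because they did not reach 4 on 3 arrays. The brighter read 3.72, 3.603 and 3.65 log2 in tumour and 3.69, 3.84 and 3.93 in control, and the other stayed between 2.17 and 3.29. At these values close to the floor, no difference in ap could be read.

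The genes ct, salm and en also act outside the antenna. The homeobox gene ct works in the antennal disc, in external sense organs and in the cone cells of the retina. Its brightest probe set read 6.05, 5.98 and 6.16 log2 in tumour and 6.14, 6.21 and 6.24 in control. The mean difference of -0.13 log2 had a 95% interval from -0.39 to 0.12 with the block (limma adjusted p = 0.408). The data thus leave room for a fall of that size, for a larger one or for a small rise. The second ct probe set read 4.82, 4.88 and 4.88 in tumour and 4.88, 5.73 and 4.88 in control, where control array 2 alone made the mean difference of -0.31. The third lay at the floor on all 6 arrays.

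The zinc-finger gene salm, which acts in the antenna's hearing organ and in colour photoreceptors, went against the other genes. It read 10.77, 10.60 and 10.64 log2 in tumour and 10.62, 10.57 and 10.60 in control. The mean difference was 0.07 log2, with a 95% interval from -0.06 to 0.21 in the fit with the block (limma adjusted p = 0.383; 0.980 unpaired). When the arrays were centred on ribosomal protein genes, the sign turned (-0.02 log2). Its neighbour and paralogue salr differed by 0.19 log2 (adjusted p = 0.343 with the block).

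The gene en encodes the homeodomain selector of posterior compartments. It read 9.10, 9.12 and 9.18 log2 on the tumour arrays and 9.39, 9.41 and 9.65 on the control arrays. The genotypes did not overlap, and the tumour values varied little, averaging 9.13 ± 0.044 against 9.48 ± 0.14 for the control arrays (SD, n = 3). With the replicate block, en fell by 0.35 on the log2 scale (SE 0.070, limma adjusted p = 0.0477), or 1.27-fold; unpaired, the adjusted p was 0.424. Its adjacent paralogue inv differed by -0.38 log2 (adjusted p = 0.196 with the block), with -0.01 in replicate 3 and -0.76 in replicate 2. The en and inv probe sets carry the suffix that Affymetrix gives to sets whose probes match more than 1 transcript, and cross-reaction between the paralogues was not tested.

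Scr and Dfd are neighbouring Hox genes of the Antennapedia complex, with 0 protein-coding genes between them in the RefSeq annotation. Scr, the selector of the labial and first thoracic segments, read 3.31, 4.84 and 5.13 log2 on tumour arrays 1, 2 and 3 and 4.48, 5.84 and 5.80 on control arrays 1, 2 and 3. Both replicate 1 arrays were low, by 1.51 log2 against the mean of the others, so the genotypes overlapped although each tumour array lay below the control array of its number. Over all tested genes, the median of that replicate 1 shift was -0.34 log2. The differences within numbers were -1.17, -0.996 and -0.67. Their mean, -0.95 log2, passed with the replicate block (SE 0.14, limma adjusted p = 0.0236) and not unpaired (adjusted p = 0.866). The tumour value of replicate 1 was under the filter at 4, in the range where the ap values lay, so the size of the replicate 1 difference, and with it the mean, is uncertain. Without replicate 1 the Scr difference was -0.83 log2.

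Dfd, the selector of the maxillary and mandibular segments, read 9.07, 9.56 and 9.70 log2 in tumour and 9.32, 9.79 and 9.81 in control. As for Scr, the replicate 1 arrays were the lowest of each genotype, here by 0.52 log2. The within-number differences were similar to each other, at -0.25, -0.23 and -0.11, with a mean of -0.20 log2 and a 95% interval from -0.36 to -0.03 with the block (limma adjusted p = 0.121; 0.983 unpaired). The difference between the Scr and Dfd changes was not tested. The other Hox genes with a probe set here gave no readable level: pb lay at the floor on all 6 arrays, and the 3 probe sets of Antp stayed between 2.17 and 2.22.

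**Figure D2:**
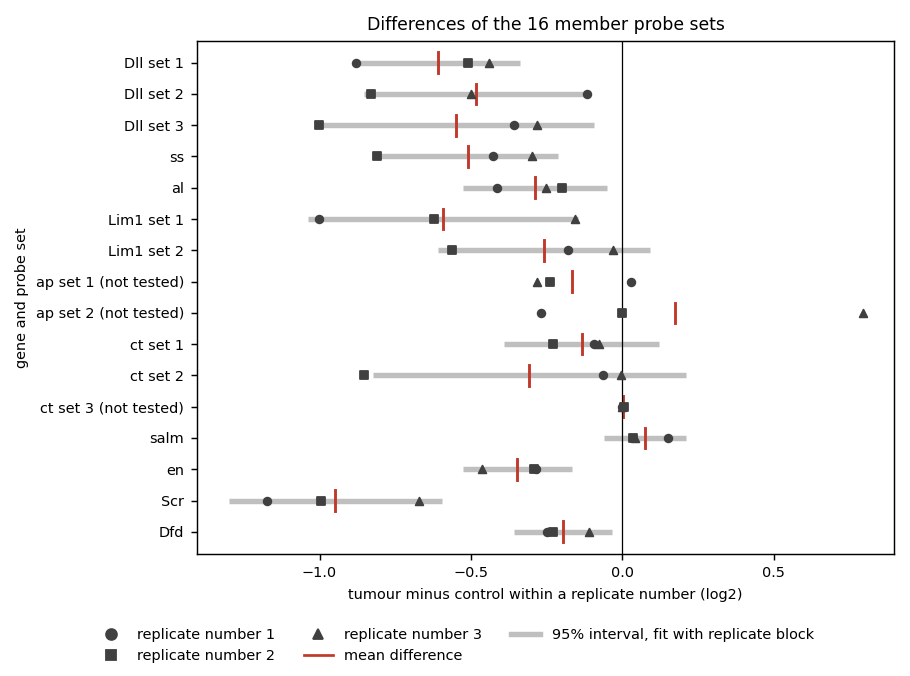
Tumour minus control difference in log2 for each of the 16 probe sets, numbered by brightness within a gene, with 1 symbol for each replicate number, a red line for the mean and a grey bar for the unadjusted 95% interval of the fit with the replicate block (no bar for the 3 probe sets not tested). All 3 symbols lie left of 0 for every tested probe set except that of salm; the order of the replicate numbers differs between probe sets.

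Among the 9 tested genes, replicate 1 gave the lowest difference for 5, replicate 2 for 3 and replicate 3 for 1. The mean over the 9 genes differed by -0.49 log2 in replicate 1, -0.43 in replicate 2 and -0.27 in replicate 3. For Scr, the SD within genotypes was 0.88 log2 while the SD of the 3 within-number differences was 0.25, and for Dfd the values were 0.31 and 0.075. For ss and Lim1 the order was opposite: 0.15 within genotypes against 0.27 between pairs for ss, and 0.22 against 0.42 for Lim1. Thus Scr, whose genotypes overlapped, passed with the block, and ss and Lim1, whose genotypes did not, missed with it. Genotypes did not overlap with tumour lower for 3 of the 9 genes on their brightest probe sets (ss, Lim1 and en), against 7.20% of all tested genes.

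With only 2 pairs left in a fit, most of these calls were lost while the differences stayed of similar size. In fits with the block that left out both arrays of 1 replicate number, Dll remained called without replicate 1 (-0.47 log2, limma adjusted p = 0.0381; 4.37% of tested genes were called lower there) and was not called without replicate 2 (-0.66, adjusted p = 0.0631) or replicate 3 (-0.69, 0.237). Without replicates 1, 2 and 3, Scr differed by -0.83, -0.92 and -1.09 log2 (adjusted p = 0.0523, 0.0545 and 0.177). The en differences were -0.38, -0.37 and -0.29 (adjusted p = 0.0707, 0.0990 and 0.332). Without replicate 3 that fit called 0 of 7962 probe sets, so it says little about these 3 genes. With replicates 2 and 3 alone and no block, limma called Scr lower (-0.83 log2, adjusted p = 0.0379), where 4.19% of tested genes were called lower. Dll's brightest probe set missed there (adjusted p = 0.0621), while its second probe set passed (adjusted p = 0.0334).

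**Figure D3:**
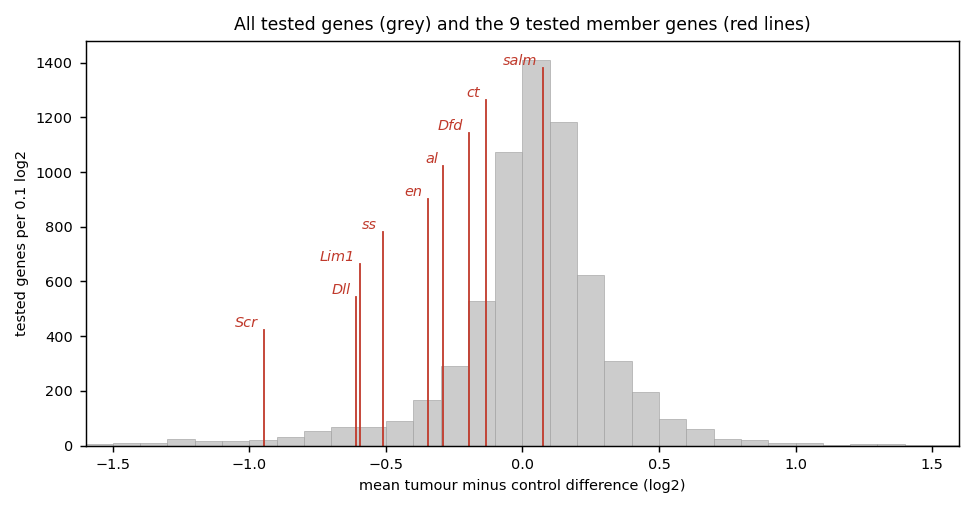
Histogram of the mean tumour minus control difference (log2, bins of 0.1) of the 6447 tested genes in grey, with red lines at the 9 tested member genes; line heights are staggered for legibility and 24 genes lie beyond the plotted range of 1.6 to either side. Scr, Dll, Lim1 and ss stand in the lower tail, while ct and salm lie within the bulk.

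Placed among all tested genes, the Scr difference was lower than all but 1.71%, that of Dll than all but 4.09%, Lim1 4.20% and ss 5.07%. For en, al, Dfd and ct the shares were 7.77%, 9.62%, 13.9% and 18.5%, and salm stood near the middle at 55.0%. The genes closest in pattern over the 6 arrays, by root mean square distance of centred log2 values among 6438 other genes, were Sp7 (0.030 log2) and Had1 (0.070) for Dll. For en they were Cog4 (0.021) and twf (0.038), and for Scr CG16786 (0.16) and gsb-n (0.18). The paired-homeobox segmentation gene gsb-n read 4.35, 6.08 and 6.10 log2 in tumour and 5.61, 6.51 and 6.74 in control, with both replicate 1 arrays low, as for Scr. Closeness over 6 arrays includes the replicate 1 shift that many genes share.

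The other genes of antennal and head patterning did not move as 1 block. Of 45 listed, 37 had a probe set with their symbol alone and 30 were tested. Limma's unpaired fit called 0 of them. At an unadjusted p under 0.05, 4 were higher and 4 lower, against 3.75% and 4.98% of all tested genes. With the replicate block, 8 were higher and 1 was lower, against the backgrounds of 4.06% and 5.38%. Their median difference was 0.12 log2, compared with 0.05 for all tested genes and -0.35 for the 9 genes above. Not analysed here were hth, exd, Bx, lab, Ubx, abd-A, Abd-B and slp1.

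The gene called lower was oc, the homeobox gene of the ocelli and dorsal head, which read 7.83, 7.68 and 8.05 log2 in tumour and 8.55, 8.17 and 8.42 in control. Its genotypes did not overlap, and it fell by 0.52 on the log2 scale with the block (limma adjusted p = 0.0429; 0.430 unpaired). Several other genes of the antennal axis had lower mean values without passing with the block. The joint gene odd differed by -0.54 log2 (adjusted p = 0.0641), bab2, which patterns distal segments, by -0.44 (adjusted p = 0.0752), and the zinc-finger genes disco and disco-r by -0.47 and -0.57 (adjusted p = 0.0998 and 0.127). These 4 were named after their values were seen. With replicates 2 and 3 alone and no block, limma called bab2 lower (adjusted p = 0.0173). It was the only lower call among the 30 tested patterning genes in that fit, while 6 were called higher. Of all tested genes, 4.19% were called lower there and 2.98% higher.

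Of the 8 genes called higher with the block, several also work in the eye. The retinal determination gene dac, which also patterns the middle of the antenna, rose by 0.69 log2 (adjusted p = 0.00751), and the teashirt-family genes tio and tsh rose by 1.06 (0.0252) and 0.41 (0.0219). The gene dan, a nuclear regulator of antennal identity that also acts in the eye, rose by 0.40 log2 (adjusted p = 0.0157), and its close neighbour danr differed by 0.22 (adjusted p = 0.0586). B-H2, a Bar homeobox gene of the antenna and of outer photoreceptors, rose by 0.42 (0.0277), with its neighbour B-H1 at 0.34 (0.0537). The proneural genes sc and ac, which start external sense organs, rose by 0.45 (0.0294) and 0.51 (0.0497). Chi, the cofactor with which the LIM-homeodomain protein ap works, rose by 0.34 (0.0420). All of these adjusted p-values are from limma with the block; unpaired, the 8 called genes had adjusted p-values from 0.161 to 0.906.

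**Figure D4:**
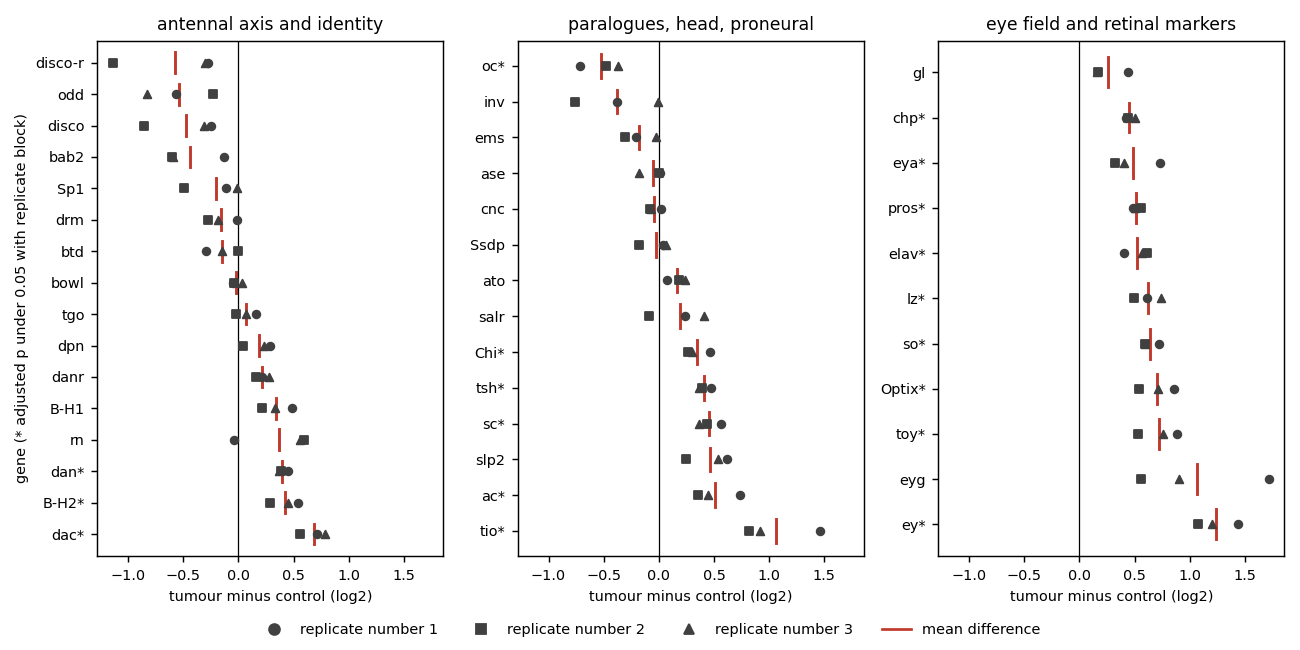
Tumour minus control difference in log2 for the 30 tested genes of the other antennal and head patterning lists (left and middle) and the 11 tested eye field and retinal markers (right), each shown by its brightest probe set, with symbols for replicate numbers, a red line for the mean and an asterisk where limma's adjusted p with the block was under 0.05. The left and middle panels hold genes on both sides of 0, and all symbols of the right panel lie to the right of 0.

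Markers of other cell types moved beside these genes. All 6 tested eye field markers were higher in tumour in each replicate number, and 5 were called higher with the block (0 unpaired). Of all tested genes, 35.7% were higher in each number and 4.06% were called higher with the block. Their mean level ran from 10.64 to 11.14 log2 in tumour and from 9.58 to 10.46 in control, so the genotypes did not overlap. The eye selector ey rose by 1.24 log2 with the block (limma adjusted p = 0.00557). Of 5 tested markers of retinal neurons and cone cells, 4 were called higher with the block (0 unpaired), with mean levels from 9.95 to 10.18 in tumour and 9.48 to 9.68 in control. Within each replicate number, the mean of the 9 genes was thus lower in tumour while both of these lists were higher. The part of these shifts in the lower values of the 9 genes was not tested. Antenna markers were split, with a median of -0.15 log2 over 4 tested. Dll and ss, both among the 9 genes, were lower in each replicate number, and dan and danr were higher. With the block, limma called Dll lower and dan higher (backgrounds 5.38% and 4.06%).

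Muscle and myoblast markers had mean levels from 8.24 to 8.35 log2 in tumour and 8.73 to 9.04 in control, where the genotypes did not overlap. Where the cells that express them lay was not measured here. Of 4 tested, 2 were called lower with the block, up and TpnC73F, and TpnC73F also unpaired (-0.84 log2, limma adjusted p = 0.0451). Of all tested genes, 5.38% were called lower with the block and 0.372% unpaired. Haemocyte markers overlapped, from 6.64 to 6.80 in tumour and 6.63 to 7.45 in control, and control array 2 had the highest mean. Of the 13 tested probe sets of the antennal and head genes, 6 had their highest value on control array 2, including that of ss and 2 of the 3 of Dll. Control array 3 held the highest value of 5 others. Of these probe sets, each except that of salm was lower in tumour in each replicate number, so its highest value had to be on a control array. Replicate 1 values were also lower over all tested genes (median -0.34 log2), which favours control arrays 2 and 3. These counts therefore say nothing about haemocytes, and a link to haemocytes was not tested. The share of all tested probe sets with their highest value on each array was not counted. The tested glial markers were moody and repo, with mean levels from 7.999 to 8.73 in tumour and 8.13 to 8.99 in control; moody was called lower with the block (-0.41, adjusted p = 0.0457) and gcm lay at the floor. The fat body markers Lsp2, Fbp1 and Fbp2 read from 5.52 to 6.51 on control array 3 and no more than 3.24 on the others. The part of these cells in the differences was not tested.

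**Figure D5:**
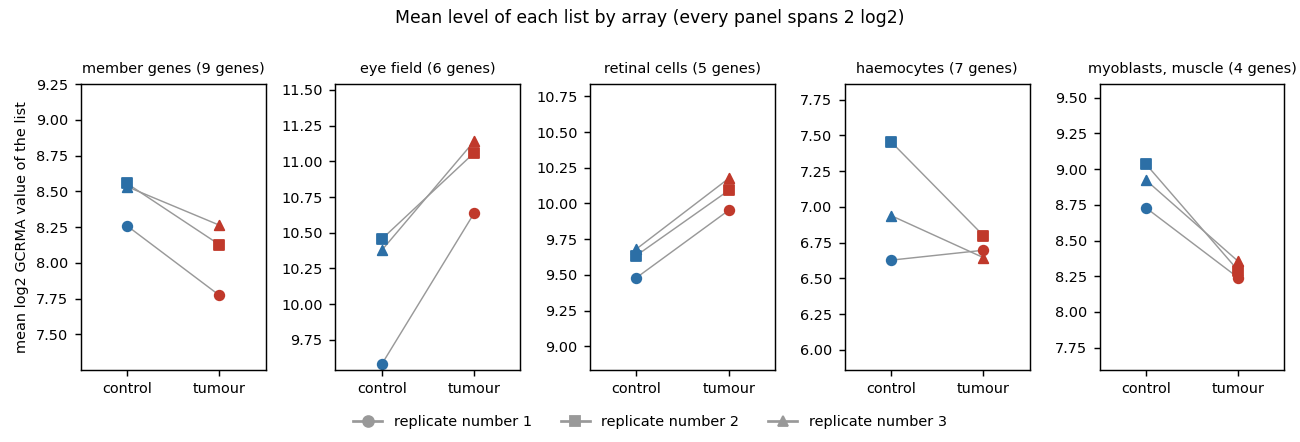
Mean log2 GCRMA value on each array over the 9 tested antennal and head genes and the tested markers of the eye field, retinal cells, haemocytes, and myoblasts and muscle, with lines joining control and tumour arrays of the same replicate number and a vertical span of 2 log2 in every panel. All 3 lines fall for the antennal and head genes and for muscle, all 3 rise for the eye field and retinal cells, and the haemocyte lines differ in direction.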

How the data were processed

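RNA of 6 samples was hybridised to one-colour Affymetrix Drosophila Genome 2.0 arrays, with 15 ug of cRNA each, per the labels' protocols. The authors deposited log2 intensities, 1 for each of 18952 probe sets, made with GCRMA per the submitters' processing notes; the log2 scale was read from the values. GCRMA removes background by probe sequence, normalizes between arrays and reduces each probe set to 1 value; its version was not given in the sources used here. Arrays have no read depth, and their number limits the precision.

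Gene symbols came from GEO's platform annotation, updated by gene ID through RefSeq's Release 6 table (13544 of 13647 single-gene probe sets matched). A probe set was tested at a log2 value of at least 4 on at least 3 arrays: 7962 probe sets of 6447 genes, without 183 control probe sets. A gene was represented by its brightest tested probe set over all arrays. The genotype contrast was fitted by limma 3.58.1 (R 4.3.3; lmFit, eBayes with trend) and p-values, two-sided, were adjusted over all tested probe sets by Benjamini-Hochberg, with a threshold of 0.05; intervals are unadjusted. Both fits were run on simulated data with known changes. There, arrays of the same replicate number shared their shift by construction, so the simulation cannot show whether the real arrays pair by number. The unpaired fit was the main one and a fit blocking on replicate number its alternative. The labels call the samples biological replicates and do not say what a number marks. Same-numbered samples deviated together from their genotype means (r = 0.794, 0.467 and 0.723 over tested probe sets for numbers 1, 2 and 3), each above 0.1, so the numbers were taken as pairs on the strength of these values alone. Tumour replicate 2 with control replicate 3 (0.668) and tumour replicate 3 with control replicate 2 (0.473) also lay above the 0.467 of number 2. Replicate 1 stood apart in both genotypes, which draws replicates 2 and 3 together in any pairing. The correlations thus could not show whether replicates 2 and 3 pair by number. Calls that passed only with the block depend on that pairing.

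The genes, lists and tests were chosen with earlier results of these data known. Genes named are the 10 members with every probe set, genes of the other patterning lists called in either fit, the 2 genes nearest in pattern to each member called with the block, markers of other cells, and others marked as chosen after their values were seen or given as a partner or neighbour of a named gene. Alternatives were other filters, renormalization, centring, eBayes without trend, arrays left out, and replicates 2 and 3 alone.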

Additional observations from a re-analysis of the deposited data

How the results depend on the processing

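Limma's unpaired fit called 41 of the tested probe sets, 25 lower and 16 higher, 0 of the 9 tested member genes, 0 of the other patterning genes and 1 marker gene. The replicate block changed these counts to 730, 3, 9 and 14, and replicates 2 and 3 alone gave 550, 1, 7 and 12. Quantile normalization again gave 216 probe sets, 0 members, 1 patterning gene and 4 markers; median centring gave 176, 0, 2 and 4; ribosomal centring gave 227 (179 lower, 48 higher), 0, 1 and 4. With no filter on low values 2 probe sets and 0 markers were called, and without the trend 0 markers. With the block and without replicate number 1, 2 or 3, the counts were 515, 484 and 0 probe sets, 1, 0 and 0 members, 6, 5 and 0 patterning genes and 14, 10 and 0 markers. Leaving out 1 array of the unpaired fit gave from 0 to 19 probe sets and 0 members, patterning genes and markers. The cause of these changes was not tested. The median difference of the members, -0.35 log2, was -0.44 with ribosomal centring, and from -0.39 to -0.26 when an array or number was left out. Leaving tumour replicate 1 out of the unpaired fit moved Dll to -0.34, Scr to -0.39, al to -0.16, Dfd to -0.01 and salm to 0.03 log2; leaving out control replicate 1 moved Dll, Scr and Dfd to -0.75, -1.39 and -0.36. Each of the tested members other than salm kept its sign in every alternative that gave it a value; salm turned with ribosomal centring alone. The block changed no other call among the members than those of Dll, en and Scr. Signal close to the floor limits Scr and ap.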
